A study of Mus musculus with 6 samples.

Results

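The nucleolar ribosome assembly factors described here are 36 genes taken from a given list of pre-rRNA processing and ribosome assembly proteins, followed in mouse oocytes with and without maternal Prdm10. All 36 were found among the 27179 genes of the count tables by their Entrez identifiers, and all 36 had enough counts to be tested among 14957 genes. By role, 13 act mainly on the small ribosomal subunit, 11 mainly on the large subunit, 7 belong to or serve small nucleolar ribonucleoproteins (snoRNPs), and 5 are nucleolar proteins shared between these steps. With all libraries, 2 members rose in the knockout, the large subunit factors Nop2 (1.92-fold) and Bop1 (1.47-fold), and none fell, where 11.2% of all tested genes were called in either direction. Without wildtype replicate 1, a library that stood apart from the others, 16 members rose and 2 fell, where 34.4% of all tested genes were called, 16.7% higher and 17.7% lower. The largest change of a called member in the latter was the 1.71-fold rise of Nop2.

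Ribosomes are built in the nucleolus around a long precursor RNA transcribed by RNA polymerase I. SnoRNPs guide methylation and pseudouridylation of this precursor, a large assembly called the small subunit processome folds and cuts the part that becomes the small subunit, and a separate series of GTPases, helicases and scaffold proteins builds the large subunit. A growing mouse oocyte makes and stores ribosomes for the early embryo. At the end of growth its ribosomal RNA transcription is silenced and the nucleolus turns into a compact nucleolus-like body.

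The oocytes were at the germinal vesicle (GV) stage, fully grown and still arrested in prophase of the first meiotic division. In the knockout group Zp3-cre had removed a floxed exon 5 of Prdm10, the gene of a transcriptional regulator with zinc fingers, and the Zp3 promoter drives Cre in growing oocytes. The other group is labelled wildtype, and the sources used here do not say whether it carried floxed alleles or Cre, nor the strain or age of the mice. Each group had 3 libraries, each made from about 10 pooled oocytes and labelled a biological replicate without naming mice, so that p-values measure only the spread between these pools. Values are CPM, the reads of a gene scaled to a common library size, and in such pools a lower share of a transcript, fewer cells that hold it and less RNA per cell cannot be told apart.

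Library totals ran from 22492228 to 38831227 counts. Across genes, Spearman correlations were 0.995 to 0.997 among the knockout libraries and 0.996 between wildtype replicates 2 and 3, but 0.976 and 0.975 between wildtype replicate 1 and these. Prdm10 was at 2.80, 3.82 and 3.05 CPM in the knockout and 10.4, 23.1 and 22.96 CPM in wildtype replicates 1 to 3 (log2 fold change -2.54, SE 0.325, adjusted p = 0.00436, edgeR quasi-likelihood test), a count that also covers exons outside the deleted one. All 10 oocyte markers examined were present, with a summed level of 27470 to 28893 CPM in knockout and 25869 to 29035 CPM in wildtype libraries. Single markers in wildtype replicate 1 departed from wildtype replicates 2 and 3 in both directions. Bmp15 was at 2106 against 5606 and 5370 CPM and Nlrp5 at 630 against 1561 and 1521 CPM. Ooep was at 4045 against 2353 and 2246 CPM and Oosp1 at 2293 against 1201 and 1179 CPM. The 16 granulosa and cumulus markers summed to 78.5 to 92.9 CPM in knockout and 87.0 to 96.1 CPM in wildtype libraries, 10 of them averaged at least 1 CPM, and Ptx3 had no counts. The 10 theca and stroma markers, 3 of them at 1 CPM or more, summed to 6.96 to 19.0 CPM in knockout and 5.03 to 21.6 CPM in wildtype libraries. The 10 blood, immune and endothelial markers summed to 117 to 121 CPM in knockout and 36.7 to 82.4 CPM in wildtype libraries, lowest in wildtype replicate 1. Pecam1, at 103 to 105 CPM in knockout and 30.4 to 75.7 CPM in wildtype libraries, made up most of that sum. Cd68, the only marker of the 4 lists that was called, was at 10.3, 11.03 and 10.4 CPM in knockout and 3.63, 1.43 and 1.24 CPM in wildtype libraries (log2 2.28, adjusted p = 0.011, edgeR), and Hba-a1 and Cdh5 had no counts in any library. Ptprc, Lyz2, Adgre1, Cd3e and Hbb-bs ran from 0 to 0.344 CPM across the libraries, and Kdr from 2.19 to 4.89 CPM. Whether the pools held cells other than oocytes, and the part of such cells in the results on the nucleolar genes, was not tested.

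Levels of the members in wildtype oocytes, per kilobase of transcript so that genes can be compared, spanned more than 2 orders of magnitude. Utp4, a scaffold protein of the early small subunit processome, was the highest at 241 ± 50.3 CPM per kilobase (SD, n = 3). Npm1, the histone and ribosome chaperone nucleophosmin, followed at 124 ± 34 CPM per kilobase, a level that is uncertain because it has 4 processed pseudogenes of at least 95.1% identity. Next stood the helicase Ddx56 at 74.5 ± 12.7, the H/ACA snoRNP protein Nhp2 at 70.3 ± 10.7 and the abundant nucleolar RNA-binding protein nucleolin (Ncl) at 60.8 ± 6.04 CPM per kilobase, and these neighbours did not differ beyond their spread. The value of Ncl, at 498 CPM before division by length, rests on a listed transcript length of 8202 bases. That length was not checked against the reads, and with a shorter transcript Ncl would rank higher, so its place is uncertain. At the other end were Nop16, at 0.542 ± 0.147, Rrs1, at 0.662 ± 0.106, and Fbl, at 0.669 ± 0.111 CPM per kilobase, whose order was also within their spread. Fbl encodes fibrillarin, the methyltransferase of box C/D snoRNPs. Its partners in the same particle, Nop56 and Nop58, were at 56.4 ± 11.8 and 54.9 ± 2.17 CPM per kilobase, so that as counted Fbl lay far below them. Fbl had only 19 to 51 counts per library. It has 1 processed pseudogene of 96.9% identity over 984 bases, and the sources used here do not say how reads with several possible origins were counted. The level of Fbl, and with it the distance from Nop56 and Nop58, is therefore uncertain.

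**Figure D1:**
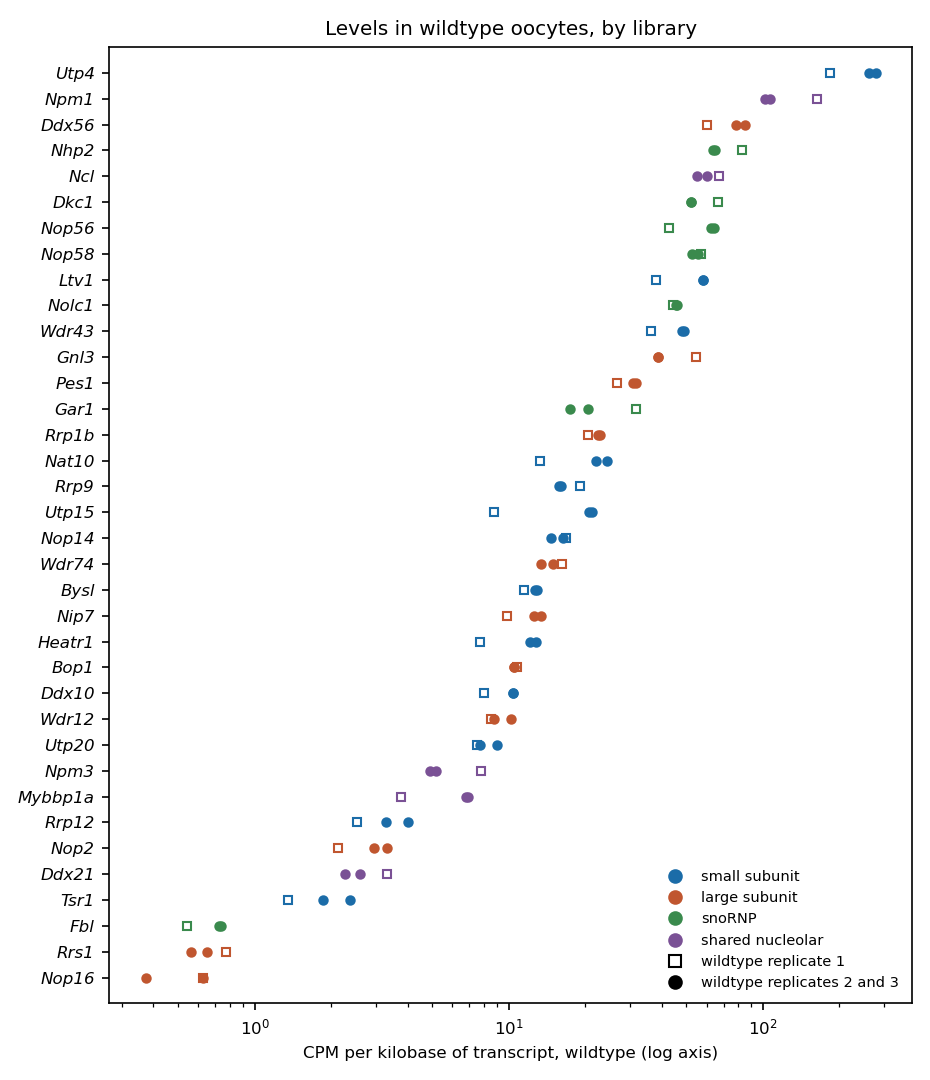
Level of each of the 36 members in each wildtype library, in CPM per kilobase of transcript on a log axis, ordered by mean; colours mark the role group, open squares wildtype replicate 1 and filled circles wildtype replicates 2 and 3. Utp4 and Npm1 lie highest and Nop16, Rrs1 and Fbl lowest, and for several small subunit factors such as Utp15 the open square lies well to the left of both circles.

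Of the 36 members, 2 were called higher and 0 lower in the knockout with all libraries (adjusted p under 0.05, edgeR quasi-likelihood test), against a background of 11.2% of all tested genes called, 5.87% higher and 5.34% lower. The members' share of calls was therefore not above the background. At an unadjusted p under 0.05 there were 10 members higher and 0 lower, where 28.8% of all tested genes passed, 2126 higher and 2188 lower. DESeq2 called 6 members higher and 0 lower (17.9% of all genes, 8.89% higher and 8.97% lower). Limma-voom called 3 higher and 0 lower (11.1% of all genes, 6.01% higher and 5.11% lower). Over both directions, each of these shares of members lay near or below that of all genes. The members that passed were all higher, while all genes were split between the directions, a difference that was not tested. The fitted log2 fold change was above 0 in 29 of 36 members, with a median of 0.32 and a range from -0.23 to 0.94, where 49.7% of all tested genes were above 0 and their median was -0.00. By role the median was 0.33 for the small subunit, 0.35 for the large subunit, 0.01 for the snoRNP and 0.18 for the shared nucleolar members. In 17 members every knockout library lay above every wildtype library and in 1, Dkc1, every knockout library lay below. The genotypes were likewise apart in 40.2% of all tested genes, with the knockout higher in 20.9% and lower in 19.3%. Against wildtype replicates 2 and 3 alone, 21 members lay wholly higher and 4 wholly lower in the knockout, where 60.2% of tested genes did not overlap (29.3% higher and 30.9% lower).

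Leaving out wildtype replicate 1 gave 16 members called higher and 2 lower, beside a background of 34.4% of tested genes (16.7% higher and 17.7% lower). Those called higher were 6 of 13 small subunit, 5 of 11 large subunit, 2 of 7 snoRNP and 3 of 5 shared nucleolar members, and the 2 called lower were the small subunit factor Bysl and the snoRNP protein Nop56. The median log2 fold change over the 36 members was 0.26, with 30 above 0. The role medians were 0.23, 0.36, 0.13 and 0.25 in the same order. With all libraries and limma-voom quality weights, the small subunit median was 0.17. With any other single library left out, no member was called in either direction by edgeR, and 6 to 10 were higher and 0 lower at an unadjusted p under 0.05, which 19.8% to 27.3% of all genes passed in these fits. By direction, 1527 to 2030 of all genes were higher and 1509 to 2257 lower at that p.

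**Figure D2:**
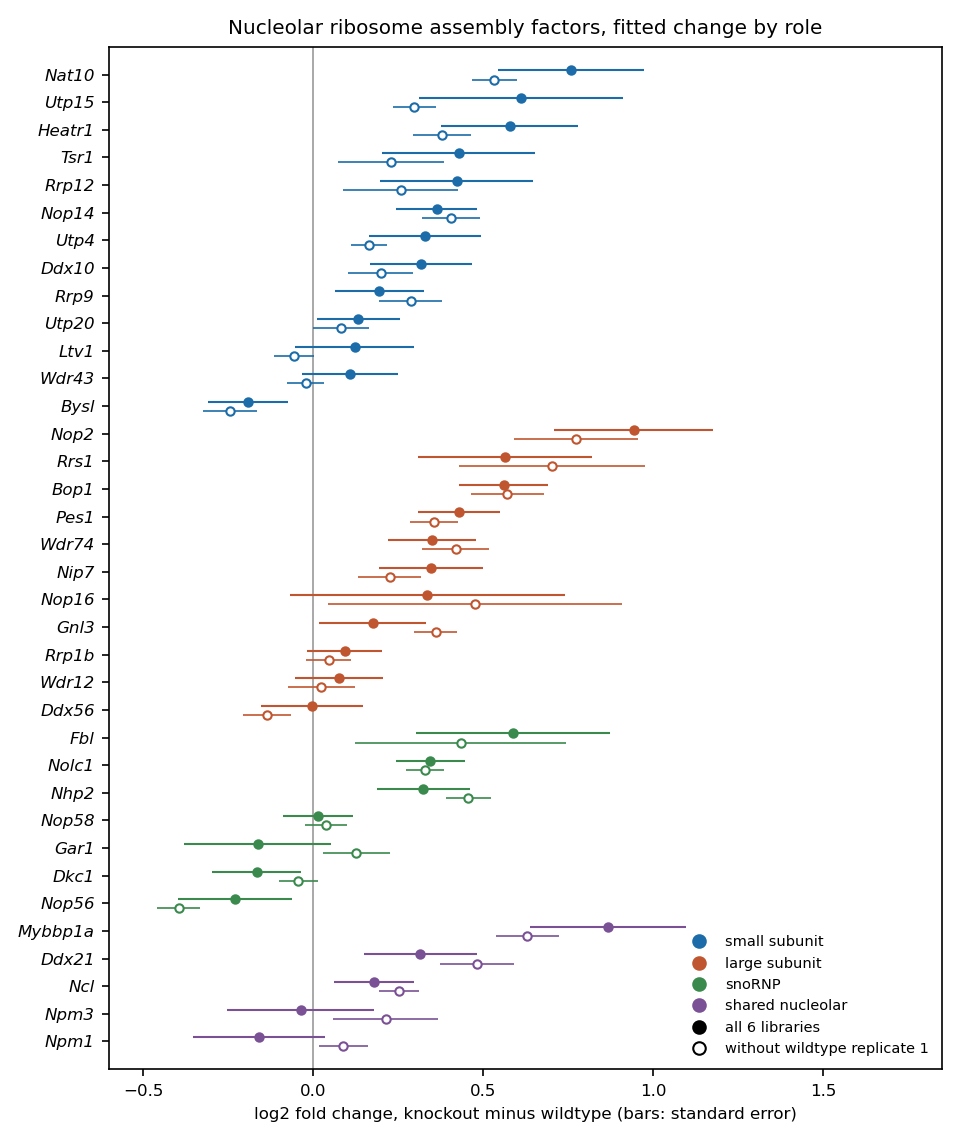
Fitted log2 fold change of each member, knockout minus wildtype, with bars of 1 standard error, grouped by role; filled circles are from all 6 libraries and open circles from the fit without wildtype replicate 1. Most points lie right of 0, Nop2, Mybbp1a and Nat10 farthest, and bars are mostly shorter without wildtype replicate 1.

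As a share of all reads, the 36 members together took 0.364% in each of the 3 knockout libraries and 0.320%, 0.317% and 0.311% in wildtype replicates 1 to 3 (95% Wilson intervals 0.362% to 0.366% in the knockout and 0.308% to 0.322% in the wildtype libraries, for counting error only). All knockout libraries lay above all wildtype libraries in this sum. The large subunit members took 0.0613% to 0.0651% in knockout and 0.0531% to 0.0551% in wildtype libraries, with no overlap. The small subunit members took 0.155% to 0.162% in knockout libraries against 0.106%, 0.139% and 0.134% in wildtype replicates 1 to 3, again with no overlap. Such sums weight abundant members most. In knockout replicate 1 the small subunit factor Utp4 had 23200 and Ncl 18595 of the 122538 member counts. In wildtype replicate 1 they had 17071 and 22871 of 124157. Taken singly, 40.2% of all tested genes did not overlap between the genotypes. For the snoRNP and shared nucleolar members, wildtype replicate 1 was the highest of the 6 libraries, at 0.0670% and 0.0916%, and wildtype replicates 2 and 3 were the lowest.

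Among the large subunit factors, Nop2 (Entrez 110109, GRCm38 chr6:125131883-125144753), a nucleolar methyltransferase of large subunit ribosomal RNA, was at 17.0, 14.0 and 10.6 CPM in knockout and 5.52, 7.67 and 8.60 CPM in wildtype replicates 1 to 3. The libraries of the genotypes did not overlap, though knockout replicate 3 lay close to wildtype replicate 3. Nop2 rose 1.92-fold (log2 0.94, SE 0.233, adjusted p = 0.0407, edgeR quasi-likelihood test), from 7.26 ± 1.58 to 13.9 ± 3.19 CPM (SD, n = 3 each). Leaving out 1 library at a time gave log2 fold changes of 0.77 to 1.10 with adjusted p from 0.00734 to 0.165 (edgeR), and the call was kept only without wildtype replicate 1. Bop1 (Entrez 12181, chr15:76452988-76477249), a scaffold protein that works with Pes1 and Wdr12 in the PeBoW complex, was at 43.9, 38.7 and 34.4 CPM in knockout and 26.9, 26.2 and 26.2 CPM in wildtype libraries. Here wildtype replicate 1 lay with the other wildtype libraries, and every knockout library was higher. Bop1 rose 1.47-fold (log2 0.56, SE 0.131, adjusted p = 0.0346, edgeR), with adjusted p from 0.00209 to 0.156 (edgeR) when each library was left out and the call again kept only without wildtype replicate 1. It overlaps Scx over 2058 bases, and Scx, with means of 1.24 CPM in the knockout and 0.976 CPM in the wildtype, was not called. Bop1 also overlaps Mroh1 over 52 bases, with means of 10.6 CPM in the knockout and 6.27 CPM in the wildtype. Mroh1 was not called with all libraries (log2 0.75, adjusted p = 0.0736, edgeR) but was called without wildtype replicate 1 (adjusted p = 0.0197, edgeR).

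Pes1, the second PeBoW protein, was at 112, 125 and 112 CPM in knockout and 77.5, 89.7 and 91.8 CPM in wildtype libraries, with no overlap (log2 0.43, SE 0.121, adjusted p = 0.0595, edgeR). It was called higher when wildtype replicate 1 was left out (log2 0.36, adjusted p = 0.00269, edgeR). It has 2 processed pseudogenes of over 95% identity. Wdr12, the third PeBoW protein, was at 29.8, 33.1 and 31.4 CPM in knockout and 27.7, 33.3 and 28.4 CPM in wildtype libraries, which overlapped, and its log2 fold change was 0.08 (SE 0.128, adjusted p = 0.724, edgeR). Wdr12 has 1 processed pseudogene of 97.7% identity over 1272 bases. The 3 subunits of this complex thus had fitted log2 fold changes of 0.56, 0.43 and 0.08, and differences between them were not tested. Wdr74, which works with the ATPase Nvl in large subunit maturation, was at 22.3, 23.3 and 22.9 CPM in knockout and 19.5, 16.1 and 18.0 CPM in wildtype libraries (log2 0.35, adjusted p = 0.12 with all libraries; log2 0.42, adjusted p = 0.0071 without wildtype replicate 1, edgeR). Gnl3, the GTPase nucleostemin, was at 93.3, 97.3 and 98.5 CPM in knockout and at 106, 75.2 and 74.9 CPM in wildtype replicates 1 to 3. Its wildtype replicate 1 was the highest library of all, and the log2 fold change was 0.17 with it (adjusted p = 0.49) and 0.36 without it (adjusted p = 0.00136, edgeR).

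The other 5 large subunit members were not called with or without wildtype replicate 1. Nip7 and Rrs1 had every knockout library above every wildtype library, at log2 0.35 and 0.56, but Rrs1 had only 29 to 86 counts per library. Nop16, also scarce at 17 to 65 counts, had a log2 fold change of 0.34 with an SE of 0.405, and knockout replicate 1 was its highest library at 1.92 CPM, against 0.775 and 0.954 CPM in the other knockout libraries. Without that library the change of Nop16 was -0.14. Rrp1b was at log2 0.09. Ddx56, a helicase of large subunit assembly and the member of this group with the lowest change, was at 136, 155 and 145 CPM in knockout and 118, 153 and 166 CPM in wildtype libraries, which overlapped throughout (log2 -0.00, SE 0.15, adjusted p = 0.988, edgeR).

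**Figure D3:**
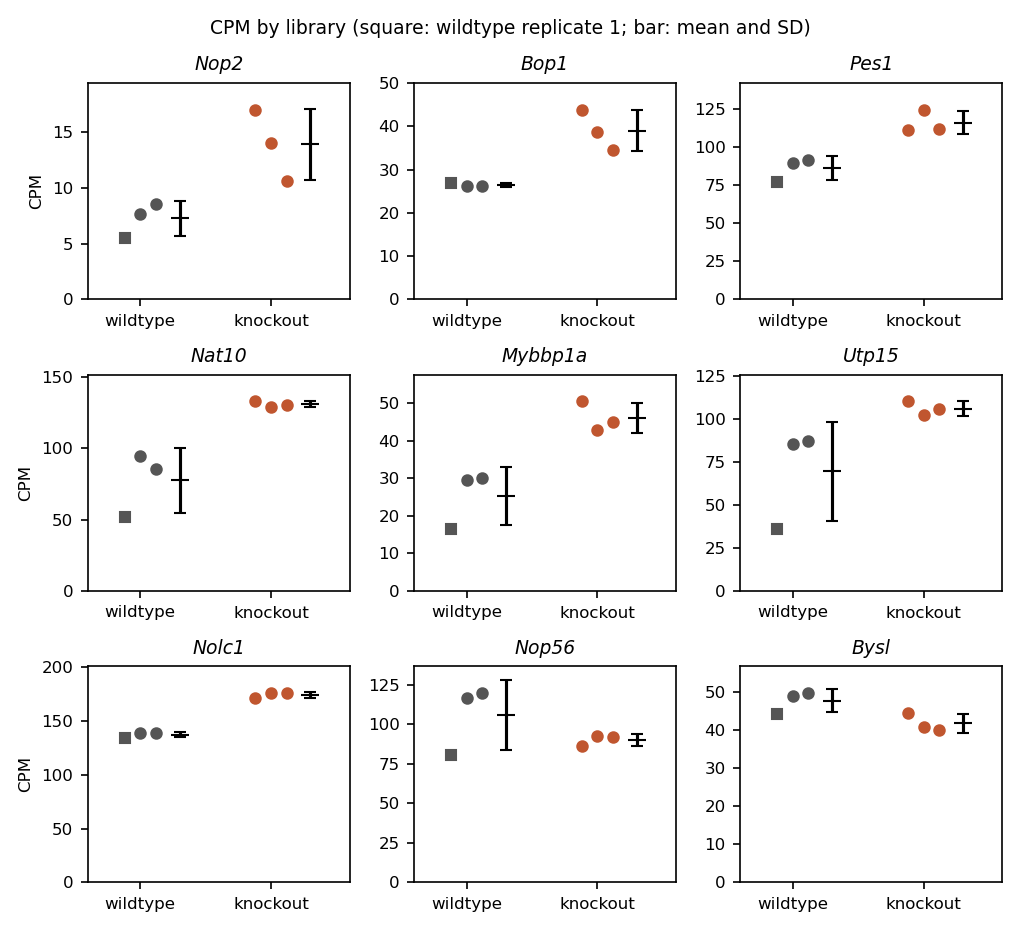
CPM in each library for 9 members, wildtype in grey with replicate 1 as a square and knockout in orange, in replicate order from left to right, with a bar for the mean and SD of 3 libraries; each axis starts at 0. Nop2, Bop1, Pes1, Nat10, Mybbp1a, Utp15 and Nolc1 have every knockout library above every wildtype library, while in Nop56 and Bysl the groups overlap with wildtype replicate 1 and the knockout lies lower without it.

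The small subunit group had 0 of 13 members called with all libraries by edgeR (3 higher and 0 lower at an unadjusted p under 0.05), while DESeq2 called 1 and limma-voom 0. Of all tested genes, 11.2% were called by edgeR, 28.8% passed the unadjusted p, 17.9% were called by DESeq2 and 11.1% by limma-voom. The largest increase of the group was that of Nat10 (Entrez 98956, chr2:103721258-103762954), which acetylates cytidines of small subunit ribosomal RNA. Nat10 was at 133, 129 and 131 CPM in knockout and 51.6, 94.8 and 85.7 CPM in wildtype replicates 1 to 3. The knockout libraries were tightly grouped and all higher. The fitted change was 1.69-fold with all libraries (log2 0.76, SE 0.214, adjusted p = 0.06, edgeR) and Nat10 rose 1.45-fold without wildtype replicate 1 (log2 0.53, adjusted p = 0.000136, edgeR). Utp15 and Heatr1, both of the early subcomplex of the processome that also takes part in transcription of ribosomal DNA, had the same shape. Utp15 was at 110, 102 and 105 CPM in knockout and 36.2, 85.1 and 87.2 CPM in wildtype libraries (log2 0.61, adjusted p = 0.223; without wildtype replicate 1 log2 0.30, adjusted p = 0.00451, edgeR). Heatr1 was at 98.7, 110 and 122 CPM in knockout and 52.1, 86.7 and 82.5 CPM in wildtype libraries (log2 0.58, adjusted p = 0.106; without wildtype replicate 1 log2 0.38, adjusted p = 0.00585, edgeR). In all 3 genes wildtype replicate 1 was the lowest library, and the fold change shrank while the adjusted p dropped once it was left out.

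Utp4, of the same subcomplex, was at 684, 676 and 667 CPM in knockout and 410, 619 and 586 CPM in wildtype libraries. The groups did not overlap, and Utp4 rose 1.12-fold against wildtype replicates 2 and 3 (log2 0.16, adjusted p = 0.03; with all libraries log2 0.33, adjusted p = 0.233, edgeR). Nop14, which binds the precursor RNA within the processome, was at 51.9, 56.9 and 57.2 CPM in knockout and 45.4, 39.5 and 44.0 CPM in wildtype libraries, where wildtype replicate 1 did not stand apart (log2 0.36, adjusted p = 0.0899; without wildtype replicate 1 log2 0.41, adjusted p = 0.00369, edgeR). Rrp9, a protein of the U3 snoRNP that founds the processome, was at 32.9, 30.1 and 29.6 CPM in knockout and 30.3, 25.5 and 25.1 CPM in wildtype libraries, which overlapped through wildtype replicate 1 (log2 0.19, adjusted p = 0.358; without it log2 0.29, adjusted p = 0.0312, edgeR). Bysl, the bystin protein of later small subunit precursors, had the only negative log2 fold change of the group. It was at 44.5, 40.6 and 39.996 CPM in knockout and 44.2, 49.0 and 49.8 CPM in wildtype libraries (log2 -0.19, adjusted p = 0.322; without wildtype replicate 1 log2 -0.24, adjusted p = 0.035, edgeR). Bysl overlaps the cyclin gene Ccnd3 over 359 bases, and Ccnd3 rose (log2 0.66, adjusted p = 0.0359, edgeR).

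Of the other 6 small subunit members, Tsr1, Rrp12, Ddx10, Utp20, Ltv1 and Wdr43 had log2 fold changes of 0.11 to 0.43 with all libraries and -0.06 to 0.26 without wildtype replicate 1, and none was called in either fit. Tsr1 and Ltv1 act late, on small subunit precursors that are leaving or have left the nucleus. Ltv1 was at 133, 125 and 127 CPM in knockout and at 87.1, 133 and 133 CPM in wildtype libraries, and its log2 fold change was 0.12 with wildtype replicate 1 and -0.06 without it. Tsr1 overlaps Srr over 5314 bases, and its reads could have been shared with it.

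The snoRNP members were mixed, with log2 fold changes from -0.23 to 0.59, and none of the 7 was called with all libraries by edgeR (2 higher and 0 lower at an unadjusted p under 0.05), while DESeq2 called 1 and limma-voom 0. The shares of all tested genes were 11.2%, 28.8%, 17.9% and 11.1% in this order. Nolc1, a chaperone that shuttles snoRNPs between nucleolus and Cajal bodies, was at 171, 176 and 176 CPM in knockout and 134, 139 and 139 CPM in wildtype libraries. It was among the most even members within each genotype, wildtype replicate 1 included, and the genotypes were well apart. The fitted log2 fold change was 0.34 with all libraries (SE 0.102, adjusted p = 0.0693) and Nolc1 rose without wildtype replicate 1 (log2 0.33, adjusted p = 0.00112, edgeR). The H/ACA snoRNP, which makes pseudouridine, has Dkc1 as its catalytic subunit and Nhp2 and Gar1 among its core proteins. Nhp2 was at 87.9, 93.6 and 94.0 CPM in knockout and 86.1, 66.5 and 67.3 CPM in wildtype libraries (log2 0.32, adjusted p = 0.163; without wildtype replicate 1 log2 0.46, adjusted p = 0.000399, edgeR). Dkc1 was at 141, 140 and 146 CPM in knockout and 186, 147 and 147 CPM in wildtype libraries, and Gar1 at 26.1, 26.6 and 26.6 against 40.3, 26.1 and 22.2 CPM. Neither was called with or without wildtype replicate 1, and in both wildtype replicate 1 was the highest library (log2 -0.17 and -0.16 with it, -0.04 and 0.13 without it).

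The box C/D proteins differed from each other. Nop56 was at 86.1, 92.7 and 91.8 CPM in knockout and 80.4, 117 and 120 CPM in wildtype replicates 1 to 3, lower than wildtype replicates 2 and 3 but not than wildtype replicate 1 (log2 -0.23, adjusted p = 0.392). Nop56 fell when that library was left out (log2 -0.40, adjusted p = 0.000739, edgeR). It has 4 processed pseudogenes of at least 95.5% identity, so some of its reads could have been shared or left out. Nop58 was even across all libraries, at 96.2, 95.2 and 93.6 CPM in knockout and 97.4, 94.8 and 90.1 CPM in wildtype libraries (log2 0.01, SE 0.104, adjusted p = 0.943, edgeR). Fbl, at 1.503, 1.07 and 1.01 CPM in knockout and 0.648, 0.886 and 0.869 CPM in wildtype libraries, had the largest fitted increase of the group but few counts (log2 0.59, SE 0.286, adjusted p = 0.22, edgeR).

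Among the shared nucleolar proteins, none of the 5 was called with all libraries by edgeR (1 higher and 0 lower at an unadjusted p under 0.05), while DESeq2 and limma-voom each called 1. The shares of all tested genes in this order were 11.2%, 28.8%, 17.9% and 11.1%. Mybbp1a (Entrez 18432, chr11:72441327-72451770), which binds the transcription factor Myb and has roles in ribosomal DNA transcription and pre-rRNA processing, was at 50.5, 42.9 and 45.0 CPM in knockout and 16.5, 29.6 and 30.01 CPM in wildtype libraries. All knockout libraries were higher, and the fitted change was 1.82-fold at the edge of the threshold (log2 0.87, SE 0.23, adjusted p = 0.0504, edgeR). With wildtype replicate 1 left out it rose 1.55-fold (log2 0.63, adjusted p = 0.000439, edgeR), and it was called in 9 of 15 alternative analyses. It overlaps Spns2 over 133 bases, and Spns2, with means of 1.297 CPM in the knockout and 0.503 CPM in the wildtype, rose as well (log2 1.40, adjusted p = 0.0297, edgeR).

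Nucleolin (Ncl) was at 548, 579 and 565 CPM in knockout and 549, 496 and 450 CPM in wildtype libraries (log2 0.18, adjusted p = 0.351; without wildtype replicate 1 log2 0.25, adjusted p = 0.00675, edgeR). Ddx21, a helicase that couples RNA polymerase I transcription with rRNA processing, was at 16.1, 15.8 and 16.3 CPM in knockout and 15.6, 10.7 and 12.3 CPM in wildtype libraries (log2 0.32, adjusted p = 0.249; without wildtype replicate 1 log2 0.48, adjusted p = 0.00598, edgeR). In both, wildtype replicate 1 was the wildtype library closest to the knockout. Npm1 was at 167, 180 and 195 CPM in knockout and 266, 174 and 166 CPM in wildtype libraries, which overlapped. Its log2 fold change was -0.16 (SE 0.193, adjusted p = 0.612) with all libraries and 0.09 (adjusted p = 0.359, edgeR) without wildtype replicate 1, so its sign rested on that library. Npm3, a partner of Npm1, was at log2 -0.04 and 0.21 in these fits and was not called. Ddx21 and Npm3 each have 1 processed pseudogene, of 95.2% and 98.9% identity.

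The place of wildtype replicate 1 was also read by role group, and differences between the groups were not tested. Set against the mean of wildtype replicates 2 and 3, it was over 1.5-fold lower in 6 members, 5 of them small subunit factors and the other Mybbp1a, and over 1.5-fold higher in 3, where 18.6% and 19.7% of all tested genes were that far lower and higher. Between wildtype replicates 2 and 3 a single member, Nop16, differed by more than 1.5-fold. The median log2 difference of wildtype replicate 1 was -0.52 for the small subunit, -0.14 for the large subunit, 0.08 for the snoRNP and 0.44 for the shared nucleolar members, against 0.01 for all tested genes. The same medians in knockout replicates 1 to 3 were 0.31, 0.17 and 0.16 for the small subunit and 0.31, 0.37 and 0.33 for the large subunit.

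The deviation of wildtype replicate 1 also varied with transcript length, which was known for 92.4% of tested genes. Its median log2 difference from the other wildtype libraries was 0.43 for genes up to 1500 bases, -0.07 from 1500 to 2500, -0.22 from 2500 to 3500, -0.20 from 3500 to 5000 and 0.01 above 5000 bases. The members followed with medians of 0.36, 0.08, -0.30, -0.52 and -0.15 in these bins, which hold 5, 11, 10, 7 and 3 members. Ncl falls in the last bin by its unchecked listed length of 8202 bases. Over the same bins the difference of the knockout libraries from wildtype replicates 2 and 3 had medians of 0.04, 0.03, 0.02, -0.01 and -0.07 over all genes and 0.40, 0.17, 0.23, 0.30 and 0.26 over the members. The part of length in the fits that include wildtype replicate 1 was not tested.

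**Figure D4:**
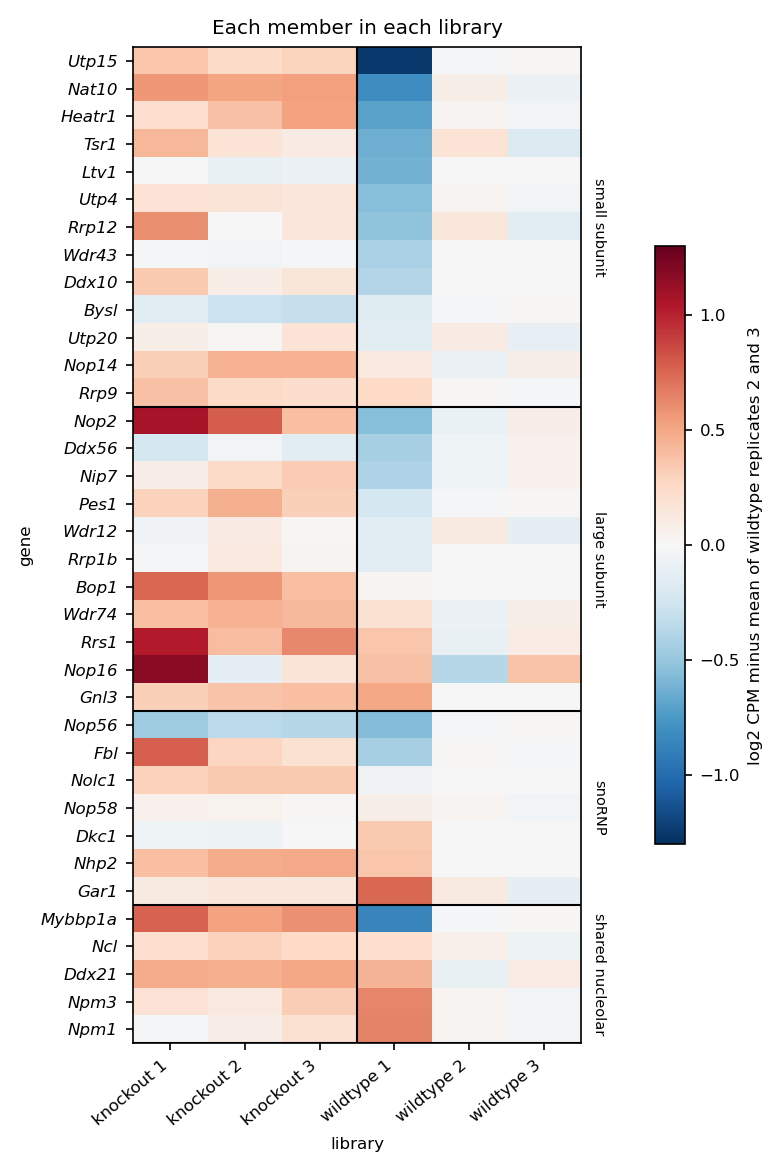
Log2 CPM of each member in each library minus the mean of wildtype replicates 2 and 3, red for higher and blue for lower, with members grouped by role and sorted within a group by the value in wildtype replicate 1. The wildtype replicate 1 column is blue for most small subunit factors and red for Gar1, Npm1 and Npm3, and the knockout columns are mostly red, with Bysl and Nop56 the deepest blue and Ddx56, Ltv1, Dkc1 and Wdr43 paler.

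To set these genes beside the rest of the pathway, 126 other ribosome assembly genes were read from the same fit, and all were tested. Of these 4 were called higher and 3 lower with all libraries, below the background of 11.2%. Without wildtype replicate 1 there were 30 higher and 11 lower, near the background of 34.4% of tested genes. The median log2 fold changes were 0.07 and 0.05 (edgeR). By role, 3 of 46 small subunit genes were called higher and 2 lower, 1 of 52 large subunit genes higher and 1 lower, and 0 of 12 snoRNP and 0 of 16 exonuclease genes by edgeR, DESeq2 or limma-voom (2 and 1 higher, 0 lower, at an unadjusted p under 0.05 in edgeR). That unadjusted p was passed by 28.8% of all tested genes, and DESeq2 called 17.9% of them and limma-voom 11.1%. When wildtype replicate 1 was left out, 10 small subunit genes were called higher and 4 lower, 13 and 6 large subunit genes, 5 and 0 snoRNP genes, and 2 and 1 exonuclease genes.

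The largest change in the pathway was that of Rrp36 (Entrez 224823, chr17:46666323-46674326), a processome protein needed for early cuts in the precursor RNA. It was at 42.8, 47.6 and 44.7 CPM in knockout and 16.5, 13.4 and 16.1 CPM in wildtype libraries, so that the genotypes were far apart and wildtype replicate 1 lay within its group. Rrp36 rose 2.93-fold (log2 1.55, SE 0.135, adjusted p = 0.000958, edgeR) and stayed called in all 15 alternative analyses. Also called higher were Aatf, of a small processome subcomplex with Ngdn (log2 0.52, adjusted p = 0.044), Tsr3, which modifies small subunit ribosomal RNA (log2 0.49, adjusted p = 0.0343), and Zfp622, a late large subunit factor (log2 0.90, adjusted p = 0.0477, edgeR). Called lower were the processome protein Utp3 (log2 -0.47, adjusted p = 0.0484), Nol7 (log2 -0.68, adjusted p = 0.0488) and Wdr18, of a complex that remodels large subunit precursors (log2 -0.47, adjusted p = 0.0323, edgeR). In these 6 genes, too, the libraries of the genotypes did not overlap, as in 40.2% of all tested genes and 35.7% of the 126 other assembly genes. This is not separate support, because the genes were picked by a test on the same libraries.

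Against wildtype replicates 2 and 3 alone, the largest further changes among large subunit genes were Mak16 (log2 1.06, adjusted p = 0.0195) and Lsg1, a cytoplasmic GTPase of the last maturation steps (log2 -0.82, adjusted p = 7.93e-05, edgeR), while the giant ATPase Mdn1 was not called (log2 0.83, adjusted p = 0.0748, edgeR). Among small subunit genes they were Wdr3 (log2 0.54, adjusted p = 0.0151) and Utp14a (log2 0.45, adjusted p = 0.00217, edgeR). Of the snoRNP assembly genes, Znhit3 (log2 0.51, adjusted p = 0.00175), Shq1 (log2 0.45, adjusted p = 0.0144) and Pih1d1 (log2 0.27, adjusted p = 0.046) rose, and Naf1 did not pass (log2 0.39, adjusted p = 0.184, edgeR). Of the RNA exosome and its partners, Exosc2 (log2 0.65, adjusted p = 0.000565) and Exosc5 (log2 0.34, adjusted p = 0.0122) rose, Exosc9 fell (log2 -0.28, adjusted p = 0.0174), and C1d did not pass (log2 0.40, adjusted p = 0.151, edgeR).

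The members' promoters were read from RefSeq windows of 300 bases on GRCm38.p6, from 250 bases before to 50 after each start, available for 31 of the 36 members. The E-box letters CACGTG (the same on both strands) stood in the windows of 8 of 31 members (25.8%), against 11.2% of tested genes with a window and 8.09% of all genes with one. These were Ltv1, Mybbp1a, Nop2, Pes1, Tsr1, Utp20, Utp4 and Wdr43. In 7 of them the letters lay past the start and in Nop2 upstream of it. Sequences are shown for the called gene Nop2 (120 bases before its start) and, as sites of 30 bases, for 3 further members whose genotypes did not overlap. All are 5′ to 3′ on the plus strand, with the E-box in capitals.
Nop2, chr6:125131763-125131882: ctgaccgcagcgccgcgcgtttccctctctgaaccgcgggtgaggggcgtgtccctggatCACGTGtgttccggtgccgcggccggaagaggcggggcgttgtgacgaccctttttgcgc
Mybbp1a, chr11:72441347-72441376: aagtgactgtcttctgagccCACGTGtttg
Pes1, chr11:3963965-3963994: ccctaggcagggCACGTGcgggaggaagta
Utp4, chr8:106893643-106893672: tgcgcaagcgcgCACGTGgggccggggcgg

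The other motifs were searched in the same windows on both strands. GGGCGG stood in 80.6% of the members' windows and 63.7% of those of tested genes, CCGGAAG in 35.5% and 18.3%, CCAAT in 35.5% and 42.9%, and TATAAA in 6.45% and 9.79%. The GC content was 59.3% in the members' windows and 59.6% in those of tested genes. The Nop2 stretch printed above also holds CCGGAAG between its E-box and the start. A match of letters is a description and not a measured binding site. Of the members with the E-box, Mybbp1a, Nop2, Pes1 and Utp4 were called higher without wildtype replicate 1. In that fit 16 of all 36 members were called higher, and 34.4% of all tested genes were called, 16.7% higher. The others, Ltv1, Tsr1, Utp20 and Wdr43, were not called with or without that library. A link between these letters and the change was not tested.

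Some members also host other genes. Annotated snoRNA genes lay within 7 of the 36 members (19.4%), Dkc1, Gnl3, Ncl, Nop56, Nop58, Tsr1 and Wdr43, against 315 of 13648 tested protein-coding genes (2.31%). Of these hosts Gnl3 and Ncl were called higher and Nop56 lower without wildtype replicate 1, and the other 4 were not called. In that fit 34.4% of all tested genes were called, 16.7% higher and 17.7% lower. Of the 19 snoRNA genes within them, 11 had an entry in the counts and none had enough counts to be tested. Snora75, within Ncl, had 5, 1 and 3 counts in knockout and 18, 7 and 4 in wildtype libraries.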

How the data were processed

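The authors deposited raw counts of reads per Entrez gene for each library. Reads had been processed with STAR 2.7.11a and featureCounts 2.0.3 on GRCm38.p6, per the submitters' processing notes. Per the labels' protocols, cDNA came from the SMARTer Ultra Low Input kit, libraries from NexteraXT, and reads were single-end. For annotation, strand setting and multimapping reads, the choices made are not stated in the sources used here. Symbols and coordinates came from RefSeq of the same assembly for 25275 of 27179 identifiers and symbols from GENCODE M21 for 17, and 1887 were unnamed. Lengths are medians of GENCODE principal transcripts.

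From these counts, genes were filtered with filterByExpr (minimum count 10), scaled by TMM and tested for genotype by the quasi-likelihood F test of edgeR 4.0.16 (R 4.3.3), adjusted by Benjamini-Hochberg over all 14957 genes and called at an adjusted p under 0.05. SE is the size of the log2 fold change over the root of F. CPM uses TMM-adjusted library sizes, and differences in log2 CPM a prior count of 0.5. The fit was tested on simulated data in which no library stood apart from its group. The planted changes were larger than any member's with all libraries. The simulation therefore cannot show how the fit handles wildtype replicate 1 or smaller changes. The authors' files were used as they stand, groups came from the labels, and no library matched another within sampling noise. Alternatives were other scalings and filters, DESeq2 1.42.0, limma 3.58.1 voom with and without quality weights, a block for the replicate number, and each library left out. The members and lists were chosen with earlier results of these data known. Values per library are given for members called with all libraries or without wildtype replicate 1 and for each role's largest increase and decrease. Wdr12, Ltv1, Dkc1, Gar1 and Nop58 were added after their values were seen. From the wider list, called genes and up to 4 per role with the largest change without wildtype replicate 1 are named. The counts have no molecular identifiers.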

Additional observations from a re-analysis of the deposited data

How the results depend on the processing

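Of the log2 fold changes of the 36 members recomputed under 15 alternatives, 456 kept their direction and side of the threshold, 49 passed it in addition, 12 lost it and 20 changed sign. Members higher (2 with all libraries) numbered 5 with library totals only, 5 with upper-quartile scaling, 4 without a filter, 4 with a filter of 5 CPM in 3 libraries, 6 with DESeq2, 17 with voom quality weights and 0 to 16 with each library left out. Members lower (0) numbered 2 with quality weights and 0 to 2 with each library left out. All genes higher (878) numbered 513 with the stricter filter, 1329 with DESeq2, 2916 with quality weights and 216 to 2526 with a library left out, and lower (798) 525, 1342, 3034 and 141 to 2673. Other assembly genes higher (4) numbered 8 with DESeq2, 33 with quality weights and 1 to 30 with a library left out, and lower (3) 1 with library totals, upper-quartile scaling or the stricter filter, 6 with DESeq2, 13 with quality weights and 0 to 11. The snoRNP median (0.01) was -0.10 with the stricter filter, which drops Fbl, 0.12 with quality weights and -0.014 to 0.13 with a library left out; with a library left out the large subunit median ran from 0.27 to 0.43, the small subunit median from 0.23 to 0.38 and the shared nucleolar median from 0.11 to 0.25. With quality weights these medians were 0.36, 0.17 and 0.27. The sign of Ddx56 turned with upper-quartile scaling (0.018), limma-voom (0.0094) and the replicate block (0.0077), and ran from -0.14 to 0.10 with a library left out; it also turned with quality weights in Npm1 (0.10), Gar1 (0.12), Npm3 (0.19), Ltv1 (-0.062) and Wdr43 (-0.016), and in Nop58 with the stricter filter (-0.0075). With a library left out Npm1 ran from -0.28 to 0.089, Gar1 from -0.33 to 0.13, Npm3 from -0.15 to 0.21, Ltv1 from -0.057 to 0.22, Wdr43 from -0.022 to 0.17, Nop58 from -0.014 to 0.038 and Nop16 from -0.14 to 0.55. The cause of these shifts was not tested.

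With the replicate number as a block, 327 genes were higher and 210 lower (3.59% of all tested genes). By edgeR 0 members were called, and 8 were higher and 0 lower at an unadjusted p under 0.05. That p was passed by 23.7% of all tested genes, 1901 higher and 1639 lower. Nop2 and Bop1 were at adjusted p = 0.121 and 0.104 (edgeR), and other assembly genes numbered 1 higher and 0 lower. Libraries of the same number did not deviate together (correlations -0.05, 0.01 and -0.09). With 3 libraries per group and wildtype replicate 1 apart from the others, these values cannot settle whether the numbers mark pairs. The labels state no pairing. The share of calls higher was 52.4% with TMM, 56.5% with library totals and 59.6% with upper-quartile scaling. At 17 to 86 counts per library, Fbl, Nop16 and Rrs1 are the members that depth limits most.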
